A study of Mus musculus with 6 samples.

Results

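The choroid plexus epithelium is described here through 10 genes it is known for: Ttr, Sostdc1, Kl, Folr1, Clic6, Kcne2, Aqp1, Trpm3, Htr2c and Otx2. They were taken by gene symbol from the count tables, which list 37991 genes, and all 10 were found. The tissue was the dorsal telencephalon rostral to the hippocampus, and the mice were of the CD1 strain. The age given for every sample is E13.5. Of the embryos, 3 received 100 ng of FGF2, fibroblast growth factor 2, into the telencephalic ventricle (embryos 6, 7 and 8). The other 3 received the vehicle, PBS with 0.1% BSA (embryos 7, 8 and 9). Total RNA came from coronal cryosections of fixed tissue, so each library holds every cell type on the sections, and no label gives the interval between injection and collection. The series title is about the effect of FGF2 on cortical folding, and no label names the choroid plexus as sampled tissue. In bulk libraries, fewer cells of a type and less RNA per cell cannot be told apart.

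The choroid plexus is a sheet of secretory epithelium that hangs into each brain ventricle and makes cerebrospinal fluid. In the telencephalon it forms at the dorsal midline from the roof plate, next to the cortical hem, under bone morphogenetic protein signals. Its cells carry tufts of cilia, secrete carrier proteins and growth factor modulators, and move ions, water and vitamins between blood and ventricle.

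Counts summed to 61489462 to 81532334 per library. In vehicle 9 every nonzero count was even, against 51.0% to 51.9% in the other libraries, and halving its counts changed no call among the 10 genes. Reads of Y-linked genes numbered 10475 to 16232 in the 3 FGF2 embryos and vehicle 7, and 22 each in vehicle 8 and 9, which makes those vehicle embryos the only females. Sex is thus partly tied to treatment. P-values measure the spread between these embryos, the smallest two-sided p that permuting the 6 embryos allows is 0.1, and calls therefore come from edgeR's quasi-likelihood test over all genes. Levels are given as CPM, counts scaled to a common library size with TMM, which corrects for composition between libraries, and as the authors' RPKM, which also divides by gene length.

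In the FGF2 embryos 8 of the 10 genes rose (edgeR adjusted p under 0.05), where 2.68% of the 21983 genes tested were called higher. Aqp1 fell, where 0.951% were called lower, and Kl did not pass the test. For 8 of the 10 every FGF2 embryo lay above every vehicle embryo, where 14.6% of all genes tested did so. The median log2 fold change was 5.74 over the 10 genes and 0.01 over all genes tested. All 10 passed the low-count filter, and 6 of them (Ttr, Clic6, Htr2c, Folr1, Kcne2 and Kl) did so only through the FGF2 embryos, so the counts and median are descriptions. With embryo sex as a covariate 2 of the 10, Clic6 and Trpm3, were called higher and 0 lower, where 4 genes in all were called higher and 1 lower. The adjusted p of the other 7 called genes was 0.133 to 0.485 in that fit. All 3 FGF2 embryos were male, so in that fit the contrast rests on vehicle 7, the only male vehicle embryo. The part of sex in these differences was not tested apart from treatment.

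**Figure D1:**
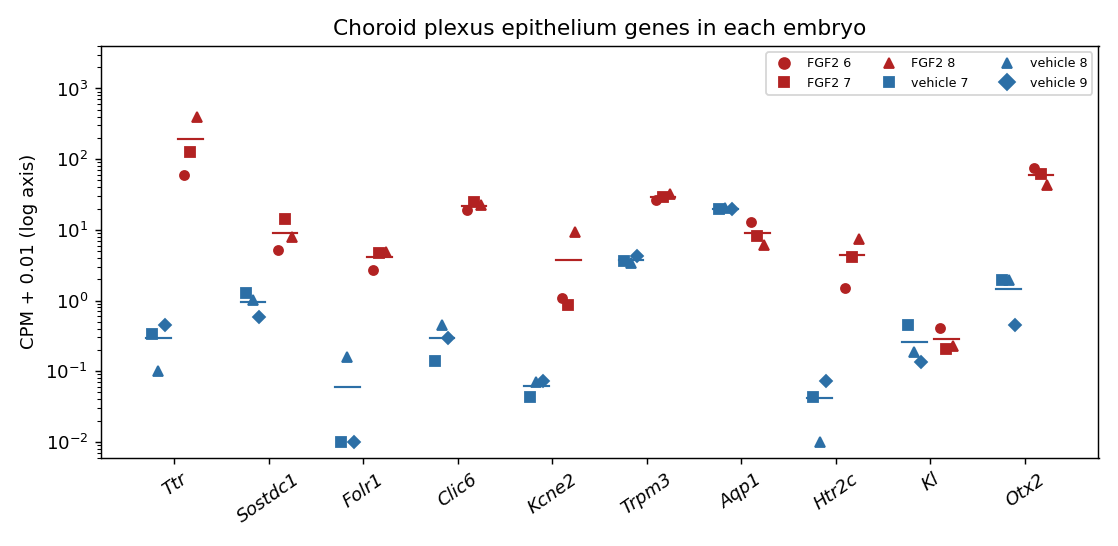
Level of each of the 10 genes in every embryo, as CPM plus 0.01 on a log axis, with FGF2 embryos in red, vehicle embryos in blue and horizontal bars at the group means. Red and blue points are apart for every gene except Kl, and Aqp1 alone has its vehicle embryos on top.

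Among the secreted products, Ttr encodes transthyretin, the thyroid hormone carrier that is the most abundant secreted protein of this epithelium. Its level was 59.1, 126 and 392 CPM in FGF2 embryos 6, 7 and 8, and 0.327, 0.0898 and 0.444 CPM in vehicle embryos 7, 8 and 9. Every FGF2 embryo was far above every vehicle embryo, and FGF2 8 stood highest. The group means were 192 ± 176 and 0.287 ± 0.181 CPM (SD, n = 3 each), from 4971, 8913 and 25204 reads against 20, 6 and 28. Ttr had a log2 fold change of 9.39 ± 1.08 (SE, edgeR adjusted p = 0.0107). Without FGF2 8 the log2 fold change was 8.34, and without vehicle 7 the edgeR adjusted p was 0.0627. The limma-voom fit gave Ttr 8.84 with an adjusted p of 0.0691. Ttr's span on chromosome 18 overlaps the neighbouring gene Gm16090, which had 73 to 189 reads in each embryo.

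Sostdc1, a secreted modulator of BMP and Wnt signals, lies at chr12:37040756-37045039 (NCBIM37, the build of the files). It measured 5.16, 14.3 and 8.01 CPM in the FGF2 embryos and 1.26, 1.02 and 0.571 CPM in the vehicle embryos. All 3 FGF2 embryos were above the vehicle embryos, with FGF2 7 highest, and the vehicle embryos held some expression. The means were 9.14 ± 4.66 and 0.949 ± 0.349 CPM (SD, n = 3 each), a log2 fold change of 3.27 ± 0.45 (SE, edgeR adjusted p = 0.0101). Without vehicle 8 Sostdc1 had an edgeR adjusted p of 0.0640.

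Kl encodes klotho, a co-receptor for endocrine FGF ligands that is also shed into the fluid (chr5:151755182-151796384). Its level was 0.404, 0.197 and 0.218 CPM in the FGF2 embryos and 0.442, 0.180 and 0.127 CPM in the vehicle embryos. The groups overlapped, with the highest value in a vehicle embryo, and each library held 8 to 34 reads. The means were 0.273 ± 0.114 and 0.249 ± 0.169 CPM (SD, n = 3 each). The log2 fold change was 0.15 ± 0.57 (SE, edgeR adjusted p = 0.911). Its sign turned in edgeR with a replicate block (-0.49) and with sex in the fit (-0.68), and also without FGF2 6 (-0.26), without vehicle 8 (-0.05) and without vehicle 9 (-0.17).

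Folr1 encodes folate receptor alpha, through which this epithelium carries folate from blood to cerebrospinal fluid (chr7:109006845-109019302). It measured 2.72, 4.64 and 4.87 CPM in the FGF2 embryos and 0, 0.150 and 0 CPM in the vehicle embryos. Reads were thus present in all 3 FGF2 embryos (229, 329 and 313), but in vehicle 8 alone among the controls (10 reads). The means were 4.08 ± 1.18 and 0.0499 ± 0.0864 CPM (SD, n = 3 each), and the ratio of summed reads was 75.8 (95% interval 41.0 to 159, counting error only, as for the other read ratios). The fitted log2 fold change of Folr1 was 6.25 ± 0.86 (SE, edgeR adjusted p = 0.0106). Without vehicle 8 the other vehicle embryos are at 0 and the fitted value is no bound, and the edgeR adjusted p was then 0.0114.

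Of the 4 channel and transport genes, Clic6 encodes a chloride intracellular channel family protein (chr16:92485981-92541488). It measured 19.0, 24.8 and 22.1 CPM in the FGF2 embryos, against 0.131, 0.434 and 0.286 CPM in the vehicle embryos. The FGF2 embryos were close to each other and far above the vehicle embryos. Its means were 22.0 ± 2.9 and 0.283 ± 0.152 CPM (SD, n = 3 each), and the log2 fold change was 6.25 ± 0.34 (SE, edgeR adjusted p = 0.000762). Clic6 was called without any 1 embryo and with sex in the fit.

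Kcne2, a small subunit that sets the gating of potassium channels, lies on the same chromosome (chr16:92292634-92298374). Its level was 1.07, 0.846 and 9.36 CPM in the FGF2 embryos and 0.0327, 0.0598 and 0.0635 CPM in the vehicle embryos. FGF2 8, with 602 reads, stood well above FGF2 6 and 7, with 90 and 60, and the vehicle embryos held 2, 4 and 4 reads. The means were 3.76 ± 4.85 and 0.0520 ± 0.0168 CPM (SD, n = 3 each). The log2 fold change was 6.11 ± 1.23 (SE, edgeR adjusted p = 0.0453), and the ratio of summed reads was 65.5 (95% interval 35.4 to 137). Without FGF2 8 the log2 fold change was 4.15 and Kcne2 was still called (edgeR adjusted p = 0.00219). The call was lost without vehicle 7, 8 or 9 (edgeR adjusted p = 0.180, 0.183 and 0.137), with no low-count filter (0.112) and in unfiltered RPKM plus 1 with limma (0.306). DESeq2 gave Kcne2 no adjusted p.

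Kcne2 and Clic6 are 187606 bases apart, and 6 genes start between them. Of these, 2410124H12Rik runs into the Clic6 span, and the spans of Fam165b and Gm15980 overlap each other. Of the 6 genes 3 were tested. None of the 3 was called by edgeR. Fam165b had a log2 fold change of 0.35 (adjusted p = 0.121), Gm15980 of 0.43 (0.0823) and Rcan1 of -0.20 (0.303). The 3 not tested were near 0 in both groups. Kcne1 averaged 0.0985 CPM in the FGF2 embryos against 0.00997, 2410124H12Rik 0.0964 against 0.0199 and 4930563D23Rik 0.0104 against 0.0218. The choroid plexus genes on either side of this interval were each called higher, though Kcne2 lost its call without any 1 vehicle embryo.

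Trpm3, a cation channel gene expressed in this epithelium and also in neurons and eye, spans chr19:22213609-23064374. It measured 26.7, 29.4 and 32.7 CPM in the FGF2 embryos and 3.57, 3.37 and 4.25 CPM in the vehicle embryos. Both groups were tight and did not overlap. The means were 29.6 ± 3.01 and 3.73 ± 0.466 CPM (SD, n = 3 each), a log2 fold change of 2.99 ± 0.14 (SE, edgeR adjusted p = 0.00035). Like Clic6, Trpm3 kept its call without any 1 embryo and with sex in the fit.

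Inside the Trpm3 span lies Mir204, a microRNA gene known from choroid plexus and pigment epithelium. The 2 mature products given by RefSeq (GRCm38.p6) are printed because their host gene rose, with the seed, bases 2 to 8, in capitals, at chr19:22750610-22750631 and chr19:22750649-22750669 on the plus strand.
mmu-miR-204-5p: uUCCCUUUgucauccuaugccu
mmu-miR-204-3p: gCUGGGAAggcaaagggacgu
Reads over the Mir204 span numbered 7, 11 and 14 in the FGF2 embryos and 0, 0 and 6 in the vehicle embryos. They cannot be told from reads of Trpm3 itself, and mature microRNAs were not measured by these libraries.

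Aqp1, the water channel of the apical membrane, was the one gene of the 10 that fell (chr6:55286426-55298549). Its level was 12.7, 8.27 and 6.03 CPM in the FGF2 embryos and 19.5, 20.3 and 19.8 CPM in the vehicle embryos. The 3 vehicle embryos were almost equal and all above the FGF2 embryos. The means were 9.00 ± 3.40 and 19.9 ± 0.357 CPM (SD, n = 3 each), a log2 fold change of -1.14 ± 0.24 (SE, edgeR adjusted p = 0.0492). Aqp1 is also made by red cells and by capillary endothelium outside the brain. Its call was lost without FGF2 7 or vehicle 7, 8 or 9, with edgeR adjusted p from 0.137 to 0.182, and narrowly on library totals (0.0609) and with a 1 CPM filter (0.0532).

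Htr2c, the serotonin 2C receptor and a G protein-coupled receptor with its densest brain expression in this epithelium, spans chrX:143397056-143631820. It measured 1.51, 4.17 and 7.40 CPM in the FGF2 embryos and 0.0327, 0 and 0.0635 CPM in the vehicle embryos. These came from 127, 296 and 476 reads against 2, 0 and 4, so the controls were near 0 and FGF2 8 was highest. The means were 4.36 ± 2.95 and 0.0321 ± 0.0318 CPM (SD, n = 3 each). The ratio of summed reads was 130 (95% interval 59.7 to 356, counting error only, and too narrow if the even counts of vehicle 9, which holds 4 of the 6 vehicle reads, count fragments more than once), and the log2 fold change was 7.03 ± 0.88 (SE, edgeR adjusted p = 0.00765). Leaving out 1 embryo gave log2 fold changes of 6.41 (FGF2 8), 6.44 (vehicle 8) and 7.96 (vehicle 9), and without vehicle 7 the edgeR adjusted p was 0.0509. The microRNA and small RNA genes inside the Htr2c span had 0 to 2 reads each.

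Otx2 encodes the homeodomain transcription factor that choroid plexus development needs, and it also acts in diencephalon, midbrain and eye (chr14:49277354-49287319). Its level was 74.5, 60.8 and 42.7 CPM in the FGF2 embryos and 1.95, 1.94 and 0.444 CPM in the vehicle embryos. All FGF2 embryos were above all vehicle embryos, with FGF2 6 highest and vehicle 9 lowest. The means were 59.3 ± 16.0 and 1.45 ± 0.867 CPM (SD, n = 3 each). Otx2 had a log2 fold change of 5.36 ± 0.52 (SE, edgeR adjusted p = 0.00394) and was called without any 1 embryo, but not with sex in the fit (4.93, edgeR adjusted p = 0.133).

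RefSeq promoter windows (GRCm38.p6) were matched for 6 of the 10 genes, as 11 windows: Aqp1, Htr2c, Kcne2, Kl, Otx2 and Trpm3. Searched on both strands in windows from 250 bases before to 50 after the start, the homeodomain core TAATCC, which Otx2 binds, was in 1 of the 11 windows, at one Otx2 start. It was in 7.06% of 32851 promoter windows. The forkhead core TGTTTAC was in 0 of the 11 and in 3.65% of all windows. A match is a string of letters, not a measured site.

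Of the windows, 3 are printed 5′ to 3′ up to the start site: the Otx2 window with the match (in capitals, as it reads on this strand, chr14:48665110-48665359, minus strand), and those of the receptor Htr2c (chrX:146962263-146962512, plus strand) and the channel subunit Kcne2 (chr16:92292139-92292388, plus strand), which rose from near 0.
Otx2: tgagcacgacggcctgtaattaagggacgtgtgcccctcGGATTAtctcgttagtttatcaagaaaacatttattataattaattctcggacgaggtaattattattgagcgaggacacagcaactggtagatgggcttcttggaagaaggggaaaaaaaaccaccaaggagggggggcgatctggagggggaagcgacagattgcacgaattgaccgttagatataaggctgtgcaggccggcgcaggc
Htr2c: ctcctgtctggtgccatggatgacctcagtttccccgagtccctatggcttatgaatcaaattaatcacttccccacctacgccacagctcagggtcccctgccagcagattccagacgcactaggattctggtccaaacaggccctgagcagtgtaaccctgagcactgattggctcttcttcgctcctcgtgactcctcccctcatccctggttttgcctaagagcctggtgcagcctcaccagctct
Kcne2: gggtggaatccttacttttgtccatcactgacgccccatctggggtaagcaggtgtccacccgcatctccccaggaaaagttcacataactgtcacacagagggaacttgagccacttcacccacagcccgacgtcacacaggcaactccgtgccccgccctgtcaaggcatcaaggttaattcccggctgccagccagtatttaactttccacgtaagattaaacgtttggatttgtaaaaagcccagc

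Per length, Ttr led the 10 genes in the FGF2 embryos and Aqp1 in the vehicle embryos. In the FGF2 embryos mean RPKM ran from Ttr (166) through Otx2 (15.5), Clic6 (5.70), Sostdc1 (5.42), Aqp1 (3.74), Kcne2 (2.30), Folr1 (1.87), Trpm3 (1.0) and Htr2c (0.368) to Kl (0.0553). The ranges over embryos overlapped between Clic6 and Sostdc1, Sostdc1 and Aqp1, Aqp1 and Kcne2, and Kcne2 and Folr1. In each of those pairs the lead changed between embryos. In the vehicle embryos Aqp1 was first (7.96 RPKM), above every other gene of the set in every embryo. Sostdc1 (0.547), Otx2 (0.359), Ttr (0.254), Trpm3 (0.0968) and Clic6 (0.0571) followed, and Kl, Folr1 and Kcne2 were between 0.0232 and 0.0378 RPKM. From Sostdc1 to Kcne2 the range of each gene overlapped that of the next. Within each vehicle embryo, however, Sostdc1 was above Otx2 and Trpm3 above Clic6, while the lead changed between embryos in the other neighbouring pairs. Htr2c was listed at 0 RPKM in all 3 vehicle embryos.

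**Figure D2:**
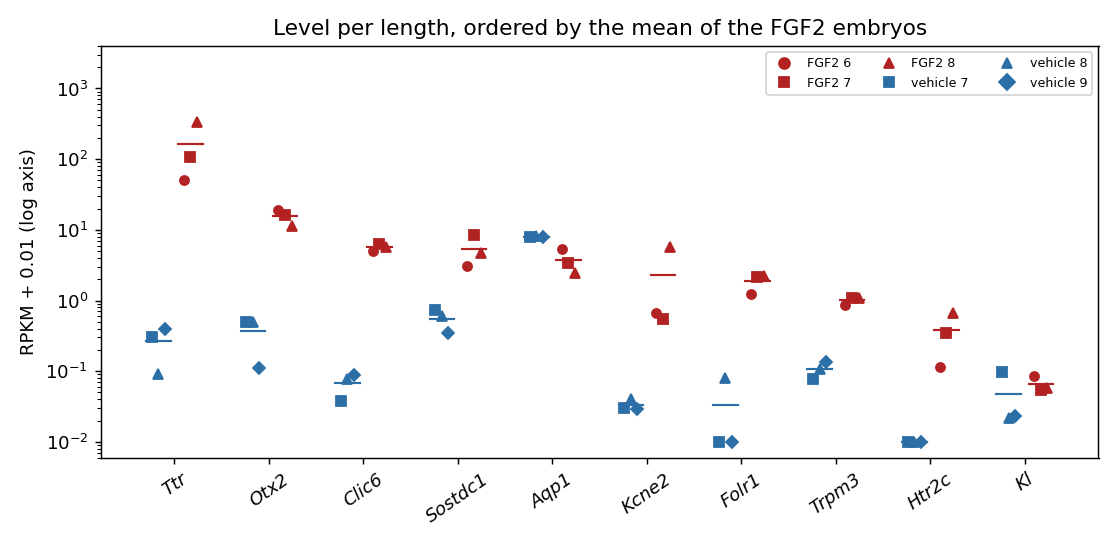
RPKM plus 0.01 of each gene in every embryo on a log axis, ordered by the mean of the FGF2 embryos (red), with vehicle embryos in blue and bars at group means. Ttr leads in the FGF2 embryos at a mean of 166, and Aqp1 leads in the vehicle embryos at 7.96.

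The genes did not share 1 order over the 3 FGF2 embryos. Ttr, Htr2c, Folr1 and Trpm3 rose in the order embryo 6, 7, 8, with the highest embryo at 6.63, 4.90, 1.79 and 1.23 times the lowest. Kcne2 was also highest in embryo 8 but lowest in 7, with a ratio of 11.1. Clic6 (1.30) and Sostdc1 (2.77) were highest in embryo 7 and lowest in 6.

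Otx2 and Aqp1 ran the other way, highest in embryo 6 and lowest in 8, at ratios of 1.75 and 2.11, and Kl was highest in embryo 6 and lowest in 7 (2.05). The transcription factor and the carrier thus moved in opposite order: Ttr over Otx2 was 0.793, 2.07 and 9.18 CPM per CPM in embryos 6, 7 and 8. Embryo 8 was highest for 5 genes, 6 for 3 and 7 for 2, on TMM CPM, on library totals and in RPKM. With 3 embryos these are descriptions with no test.

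Set against the 17563 tested genes with an FGF2 mean of at least 1 CPM, the spread of some members was wide and of others ordinary. The median ratio of highest to lowest FGF2 embryo was 1.27 in those genes, and the 90th percentile was 1.88. Only 0.154% exceeded the ratio of Kcne2, 0.393% that of Ttr and 0.632% that of Htr2c. For Sostdc1 the share was 2.57%, for Aqp1 6.80%, for Folr1 12.2% and for Otx2 13.2%. Clic6 and Trpm3 varied as an ordinary gene did, with 45.1% and 58.2% above them. FGF2 8 was the highest of the 3 for 41.0% of those genes, beside 5 of these 10.

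**Figure D3:**
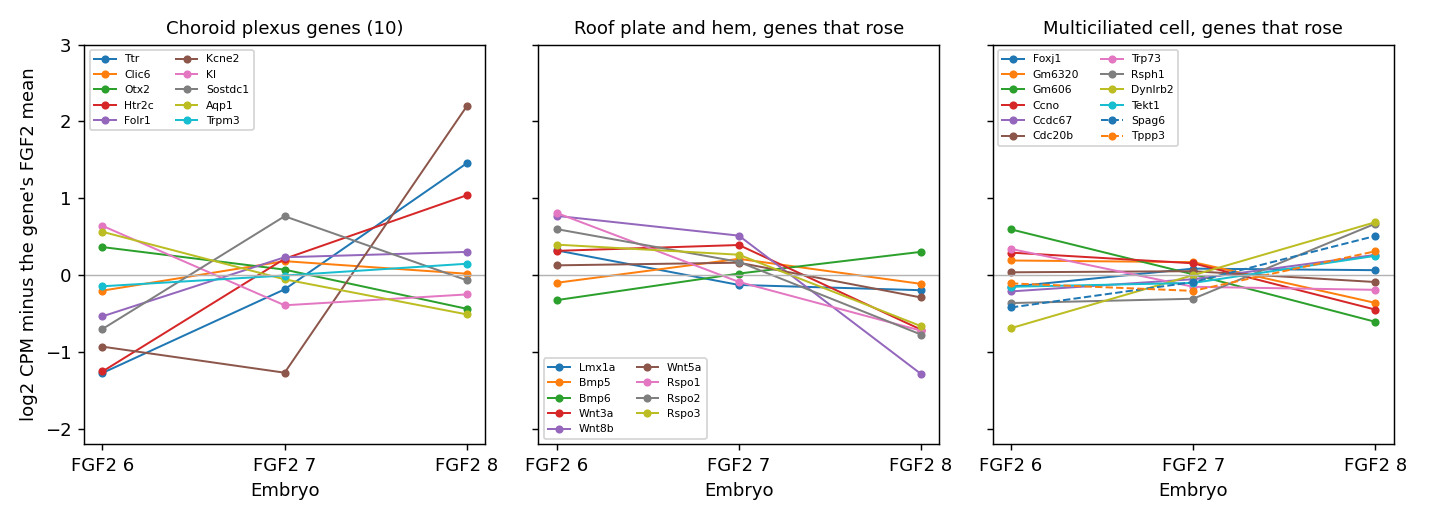
Log2 CPM in FGF2 embryos 6, 7 and 8 minus the gene's mean over these 3 embryos, for the 10 genes (left) and, for comparison, the dorsal midline genes that rose (middle) and the multiciliated cell genes that rose (right). A line joins the embryos of 1 gene for reading only, since embryos have no order. Kcne2, Ttr and Htr2c spread most on the left, with embryo 8 on top, whereas Otx2 and Aqp1 are lowest in embryo 8.

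The deposited tables also give the share of each gene's span that reads cover. For Ttr it was 98.3%, 100% and 100% in the FGF2 embryos and 91.9%, 1.83% and 80.6% in the vehicle embryos. For Folr1 it was 87.5%, 87.8% and 88.0% against 0%, 42.6% and 0%, and for Trpm3 94.9%, 91.1% and 97.1% against 2.0%, 2.50% and 14.1%. In Kl, 14 reads of FGF2 7 covered 67.5% of the span, at 1986 bases per read, so the share counts the gaps of spliced alignments and shows where reads reach, not how many there are.

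Beyond the 10, 30 other genes of this epithelium were measured and 28 tested: 5 rose, 1 fell and 22 did not pass, with a median log2 fold change of 0.68. Of all genes tested 2.68% were called higher and 0.951% lower, the shares to set beside this list and those below. Their vehicle means ran from 0 (Tmem72) to 292 CPM (Igfbp2), in embryos where Ttr averaged 0.287 CPM. How much of their level comes from this epithelium was not tested. Sulf1, a heparan sulfate sulfatase, measured 68.7, 67.8 and 38.4 CPM in the FGF2 embryos against 8.87, 8.35 and 8.92. It rose by a log2 fold change of 2.74 ± 0.22 (SE, edgeR adjusted p = 0.00166) and was called without any 1 embryo. Calml4, a calmodulin-like gene, rose by 2.79 (0.0101), the retinol receptor gene Stra6 by 0.75 (0.0119), the growth factor antagonist gene Wfikkn2 by 0.87 (0.0261) and the tight junction gene Cldn3 by 2.02 (0.0320), where values in parentheses are edgeR adjusted p. Col8a2, a collagen chain, fell by 0.93 (0.0463).

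These calls were less stable than that of Sulf1. Calml4 lost its call without vehicle 7 or 8, Stra6 and Cldn3 without FGF2 7 or any 1 vehicle embryo, Wfikkn2 in every case but without FGF2 8, and Col8a2 in every case but without FGF2 6. With DESeq2 13 of this list were called higher, where 1359 genes in all were, against 590 in the main fit. With sex in edgeR 0 of the list were called higher, where 4 genes in all were. Cldn2, another tight junction gene, was too low to test, with 84 summed reads in the FGF2 embryos against 2 (ratio 36.6, 95% interval 9.81 to 307). Tmem72 had 12 reads, all in FGF2 8, and 0 in every other embryo, so the groups overlap.

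**Figure D4:**
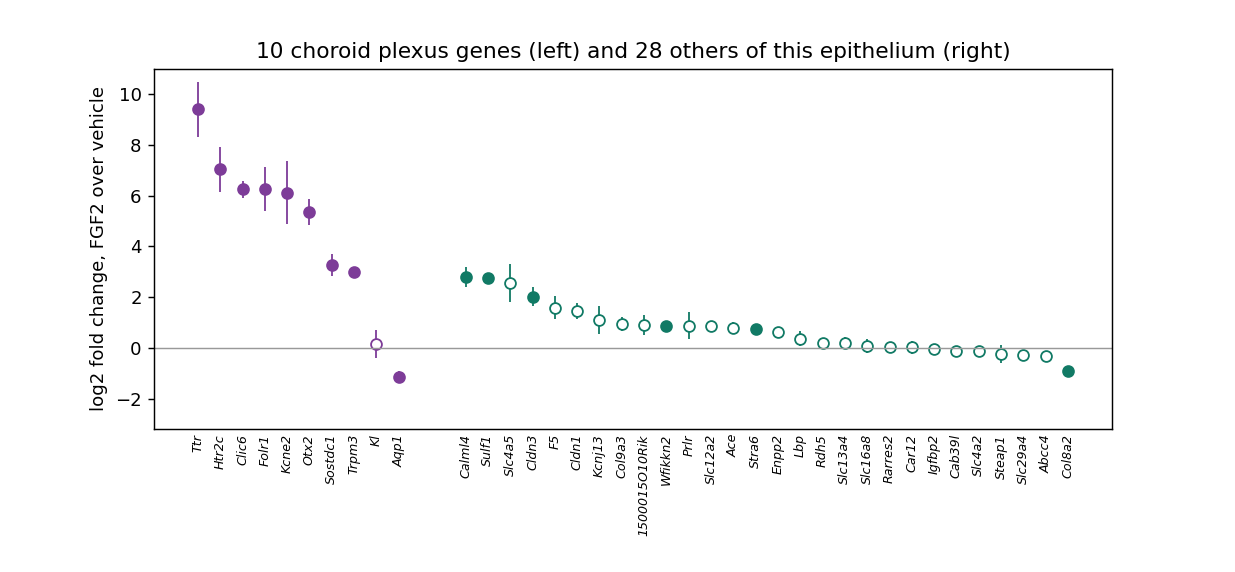
Log2 fold change (FGF2 over vehicle, edgeR) of the 10 genes (left) and of the 28 tested other genes of this epithelium (right), with SE bars, filled points for adjusted p under 0.05 and open points for the rest. Ttr is highest at 9.39, Aqp1 and Col8a2 are the filled points below 0, and the right side peaks at 2.79, for Calml4.

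Among dorsal midline genes, the territory from which the epithelium forms, 9 of 17 rose, 0 fell and 8 did not pass, with a median of 0.98. Of all genes tested 2.68% were called higher. Rspo2, a secreted enhancer of Wnt signals, measured 25.8, 19.2 and 9.95 CPM against 0.671, 0.554 and 0.730, a log2 fold change of 4.81 (edgeR adjusted p = 0.00158). Lmx1a, a roof plate transcription factor, rose by 2.95 (0.00264), and Rspo3 by 2.49 (0.00394). FGF2 6 was the highest of the 3 in 11 of the 17 genes, beside 28.8% of the 17563 genes above, and FGF2 8 the lowest in 15. The share of all genes with FGF2 8 lowest was not taken. Otx2 and Aqp1 also were highest in FGF2 6 and lowest in FGF2 8, and Ttr was not. The order was not particular to the midline list: in the mesenchymal list FGF2 6 was highest in 8 of 10 genes and FGF2 8 lowest in 8. The fourth by p, Bmp5, rose by 1.33 (0.0107) and lost its call without vehicle 7 or 8.

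Multiciliated cell genes were followed because the epithelium is ciliated: 12 of 19 rose, 0 fell and 7 did not pass, with a median of 1.30. Of all genes tested 2.68% were called higher. Foxj1, the master regulator of motile cilia, measured 16.7, 19.7 and 19.4 CPM against 6.72, 7.41 and 6.70 (log2 fold change 1.42, edgeR adjusted p = 0.00176). Ccno and Gm606 (Gmnc), which drive the multiciliated program, rose by 6.60 (0.00128) and 7.39 (0.00176), from 2, 2 and 8 reads and 0, 3 and 4 reads in the vehicle embryos. For the dynein chain gene Dynlrb2 the ratio of summed reads was 163 (374 against 2, 95% interval 44.8 to 1349, edgeR adjusted p = 0.00427). Ccno, Gm606 and Dynlrb2 had fewer than 10 reads in every vehicle embryo and passed the low-count filter only through the FGF2 embryos. The count and median of this list are thus descriptions.

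Otx2 and Trpm3 are shared with other tissues whose marker levels also differed between groups, and their part in the results was not tested. Summed CPM of 10 diencephalon and midbrain genes was 268, 129 and 290 in the FGF2 embryos and 83.0 to 91.9 in the vehicle embryos. In this list 3 of 9 tested rose, where 2.68% of all genes tested did. Gbx2, a thalamic transcription factor, rose by 7.16 (edgeR adjusted p = 0.0279), Barhl2 by 1.83 (0.0347) and Tcf7l2 by 2.01 (0.0366). With 0, 12 and 4 reads in the vehicle embryos, Gbx2 passed the low-count filter only through the FGF2 embryos. The calls of Gbx2 and Tcf7l2 were lost on leaving out any embryo other than FGF2 7, and that of Barhl2 on leaving out FGF2 8 or a vehicle embryo.

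Eye and pigment cell genes, from a tissue that also uses Otx2, Trpm3 and Ttr, moved in both directions. The sum over 10 genes was 36.4 to 46.3 CPM against 74.6 to 101, most of it from Rlbp1 and Dct. Which cells Rlbp1 and Dct came from was not tested. Whether eye tissue was on the sections was not tested. Of 7 tested, 0 rose and 2 fell, where 0.951% of all genes tested fell: Rlbp1 by 1.49 (edgeR adjusted p = 0.00203) and Dct by 1.31 (0.0209). Rgr was at 0 in all embryos. Rpe65 and Lrat were also too low to test, with 7 and 31 summed reads in the FGF2 embryos against 4 and 8. Tyrp1 (0.406 against 0.478 CPM on average) and Best1 (0.312 against 0.437) were low in both groups and did not pass. Dct lost its call without FGF2 7, FGF2 8 or vehicle 7. Of the 5 that did not pass, the pigment genes Pmel (3.76 against 0.913 CPM on average, edgeR adjusted p = 0.0912) and Mitf (3.81 against 2.14, 0.101) were higher in every FGF2 embryo. Of 10 liver and yolk sac genes, which make Ttr in the embryo, 8 were too low to test, Apoa4 and Serpina1a were at 0, and the sum was 0.892 to 1.55 CPM against 0.868 to 1.14.

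Endothelium and red cells, which can make Aqp1 outside the epithelium, were followed in the same way, with mesenchymal and macrophage genes listed beside them. The 10 endothelial genes summed to 256 to 280 CPM against 230 to 260, and 0 of 10 tested were called. Red cell genes summed to 2440 to 4222 CPM against 2065 to 3001, and 0 of 9 were called. The log2 fold change was above 0 for all 9, with a median of 0.46. Mesenchymal genes summed to 2252 to 2552 CPM against 3606 to 4147. Of these 10, 0 rose and 2 fell, where 0.951% of all genes tested fell: Col1a1 by 0.92 (edgeR adjusted p = 0.00276) and Col1a2 by 0.71 (0.0202). Col1a2 lost its call without FGF2 7, vehicle 7 or vehicle 9. Macrophage genes summed to 135 to 151 CPM against 95 to 115. Of these, 4 of 10 rose, where 2.68% of all genes tested did: Ptprc (1.23, edgeR adjusted p = 0.0202), C1qb, C1qc and Fcrls. All 4 lost their calls without FGF2 7 or any 1 vehicle embryo, and C1qc and Fcrls also without FGF2 6. Lyve1 of the same list was lower in every FGF2 embryo (3.34 against 8.79 CPM on average, log2 fold change -1.40, edgeR adjusted p = 0.0504). Whether any of these groups contributes to the fall of Aqp1 was not tested.

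Finally, genes were ranked by how closely their profile followed that of Ttr, as the root mean square difference of log2(CPM + 0.1), centred per gene, over the 6 libraries. Outside the set the nearest were Lhx8, a transcription factor gene listed under 2 identifiers with the same counts (1.45), Isl1 (1.61), Ecel1 (1.97), Ccno (1.99), Gbx2 (1.99), Gm606 (2.0) and Barx1 (2.12). Among 21982 genes Clic6 ranked 4, Htr2c 5, Otx2 12, Folr1 13, Kcne2 34, Trpm3 78 and Sostdc1 80. Kl ranked 9504 and Aqp1 21919, near the far end. The ranking covers all 6 libraries, so it favours genes with a large difference between the groups. Isl1, a LIM-homeodomain transcription factor gene, measured 31.6, 30.2 and 36.6 CPM in the FGF2 embryos against 0.409, 0.479 and 0.317 CPM. Within the FGF2 embryos the nearest genes did not all keep the order of Ttr: Lhx8 (13.2, 16.7 and 8.49 CPM), Ccno (7.51, 6.82 and 4.49 CPM) and Gm606 (9.20, 6.13 and 4.0 CPM) were lowest in embryo 8.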

How the data were processed

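Per the submitters' processing notes, the reads went through TopHat2 (2.0.9), bedtools (2.12.0), Bowtie2 (2.1.0.0) and CASAVA (1.8) with the build NCBIM37 (mm9), and no role is stated. The authors deposited read counts per gene span (gene start to end), with the fraction of each span covered, and RPKM values per symbol, which were joined to the counts here where the symbol was unique. No source used here says whether counting used strand. Counts of 6 libraries (3 FGF2, 3 vehicle) were fitted with edgeR 4.0.16 (filterByExpr, TMM, robust quasi-likelihood test) in R 4.3.3, without a replicate block, and adjusted with Benjamini-Hochberg over 21983 genes. SE is the log2 fold change over the root of F. The fit was tested on simulated data. DESeq2 1.42.0, voom (limma 3.58.1), RPKM, other scalings and filters, and leaving out each embryo were alternatives. Intervals on read ratios are exact binomial. The 10 genes, the lists and the naming rule (all 10, plus the called genes of each list with the smallest p, up to 8 per direction for choroid plexus and 4 for others, plus the 8 profiles nearest Ttr) were chosen with earlier results of these data known.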

Additional observations from a re-analysis of the deposited data

How the results depend on the processing

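Members called higher numbered 5 with RPKM plus 1 or plus 0.1 (6 members tested) and 2 with embryo sex, against 8, and 5 to 8 without 1 embryo. Members called lower, 1 as reported, were 0 on library totals, with a 1 CPM filter, in the 3 RPKM settings and with sex, and 0 to 1 without 1 embryo. All genes called higher were 1359 with DESeq2, 1273 with voom, 318, 324 and 229 with RPKM plus 1, plus 0.1 and plus 1 unfiltered, 4 with sex and 181 to 964 without 1 embryo. Those called lower were 706, 986, 114, 107, 42, 1 and 37 to 979. Other choroid plexus genes called higher were 13 (DESeq2), 8 (voom), 2 (RPKM unfiltered), 0 (sex) and 1 to 6 without 1 embryo. Those called lower were 0 on library totals, unfiltered, in the 3 RPKM settings and with sex, 2 with voom, and 0 to 1 without 1 embryo. Without 1 embryo Kl ranged from -0.26 to 0.83. It turned to -0.26, -0.05 and -0.17 without FGF2 6, vehicle 8 or vehicle 9, to -0.49 with the replicate block and to -0.68 with sex. The cause of these changes was not tested. No label pairs the embryos that share number 7 or 8. Correlations of their deviations were -0.038 and -0.030, which cannot show whether they shared a litter or batch. With the block, FGF2 6 and vehicle 9 have no partner, so the fitted difference rests on embryos 7 and 8 of each group. The block gave 8 higher and 1 lower member, 557 and 146 genes in all, and 7 and 1 other choroid plexus genes. Kl rests on 8 to 34 reads per embryo.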
